A study of Mus musculus with 9 samples.

Results

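SWI/SNF complexes use ATP to slide or evict nucleosomes, and most of their subunit positions are filled by 1 member of a small family of paralogs. The assemblies differ in their signature subunits: canonical BAF holds ARID1A or ARID1B with a DPF protein, PBAF holds ARID2, PBRM1, BRD7 and PHF10, and ncBAF holds BRD9 with BICRA or BICRAL. In the developing heart the complex is best known through BRG1, the ATPase encoded by Smarca4, and BAF60c, the muscle-enriched subunit encoded by Smarcd3, which works with cardiac transcription factors on contractile genes. Here the transcripts of 30 genes encoding BAF, PBAF and ncBAF subunits were measured in hearts that had lost Arid1a in cardiomyocytes. The genes were listed by name with earlier results of these data known, and all 30 were among the 38293 genes of the count table.

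RNA-Seq was performed on ventricles at postnatal day 7 (P7). The series held 5 libraries of Arid1a f/f control mice and 4 of aMHC-Cre;Arid1a f/f mice (cKO). The lines were kept on a C57B/6 J background. Both groups carried floxed Arid1a alleles, and the controls were littermates labelled without Cre, so the presence of Cre and the loss of Arid1a cannot be told apart. The αMHC promoter drives Cre in cardiomyocytes, while whole ventricle was sequenced, so that fibroblasts, endothelium and other cells with an intact gene contributed RNA. In such bulk samples fewer cells of a type and less RNA per cell cannot be told apart. The labels number the libraries without naming the animals behind them, and p-values therefore measure the spread between these libraries.

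Libraries held 31011055 to 40073801 counts, at which 1 count corresponded to 0.0242 to 0.0323 CPM, counts per 1000000 of the scaled library total. All 14 cardiomyocyte markers were present, with summed levels of 75410 to 84920 CPM in control and 67550 to 73120 CPM in cKO libraries, and 3 of the 14 passed the test below, each lower in cKO. Of 8 fibroblast markers 4 passed, each higher, and their sums were 6923 to 8213 CPM in control and 8559 to 9507 CPM in cKO. Of 7 smooth muscle markers 2 passed, Acta2 and Cnn1, both higher (log2 fold change 2.1 and 2.78). In all, 5 of the 7 had a positive log2 fold change. Myh11 (-0.3) and Kcnj8 (-0.09) were lower, and neither passed. Of 8 macrophage markers 0 passed in edgeR, where 1 had an unadjusted p under 0.05, but each of the 8 had a positive log2 fold change (median 0.47). The part of cell makeup in the subunit levels was not tested. The libraries also formed 2 sets by the ribosomal protein gene copy Rps3a3, which stood at 0.345 to 0.521 CPM in control 1 and 2 and cKO 1, 2 and 3 (the Rps3a3-low set) and at 99.7 to 112.3 CPM in control 3, 4 and 5 and cKO 4 (the Rps3a3-high set). Within-set differences, log2 ratios of the mean cKO to the mean control CPM of a set, are therefore given beside the main results.

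Of the 30 subunit genes, 29 passed the filter on low counts and were tested among 15318 genes with edgeR's quasi-likelihood test. A gene passed at a Benjamini-Hochberg adjusted p under 0.05, and was called where its fold change also exceeded 1.5. The remaining gene, Actl6b, the neuronal actin-like paralog, had 0 counts in all 9 libraries, which allows a level of up to 0.0726 to 0.097 CPM per library (3 counts, covering counting error only). Transcripts of 4 subunits were called, 2 higher (Smarcd3 and Dpf1) and 2 lower (Dpf3 and Bcl11b) in cKO hearts. This was 13.8% of those tested, against 6.72% of all genes in the table, of which 4.01% were higher and 2.72% lower. Arid1a itself and Smarcd1 passed with smaller decreases, which made 6 subunits or 20.7%, against 16.3% of all genes (8.25% higher and 8.03% lower). Without the targeted gene it was 5 of 28, or 17.9%. Control and cKO libraries did not overlap for 8 subunits or 27.6%, against 16.7% of all genes, and the 2 that did not pass were Smarca2 and Ss18l1. The median log2 fold change of the subunits was -0.06 and that of all tested genes 0.01. Their median absolute log2 fold change was 0.13, below the 0.17 of all genes, so most subunits sat close to their control level.

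**Figure D1:**
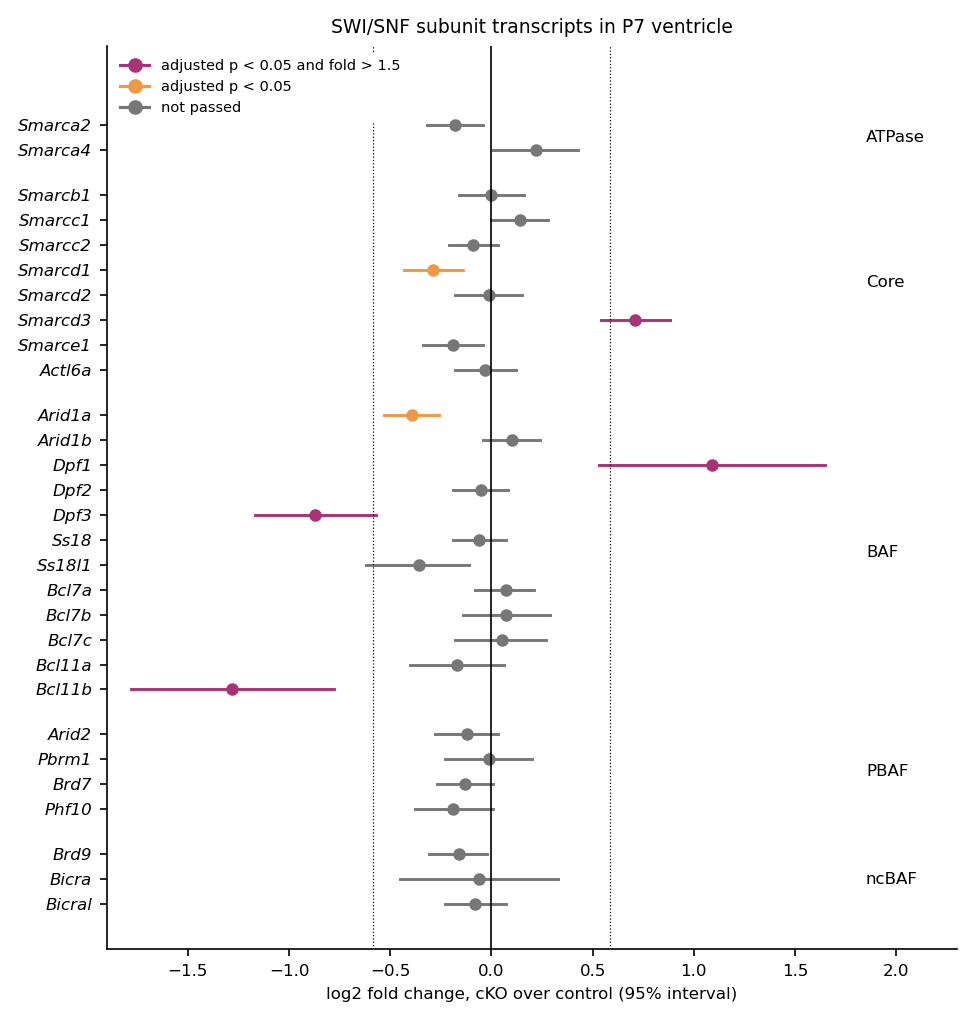
Log2 fold change of cKO over control (horizontal axis) with its 95% interval for the 29 tested subunit genes. The labels ATPase, Core, BAF, PBAF and ncBAF order the plot and do not confine a gene to a single assembly. Dotted lines mark 1.5-fold. The intervals of Smarcd3, Dpf1, Dpf3 and Bcl11b lie farthest from 0, and 22 of the 23 genes that did not pass lie between the dotted lines.

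Arid1a encodes the large ARID subunit that defines canonical BAF (chromosome 4, 133679008 to 133756769, minus strand, GRCm38). Its level was 142.4, 128.0, 133.3, 147.3 and 148.1 CPM in control 1 to 5 and 108.3, 112.9, 100.3 and 104.0 CPM in cKO 1 to 4. The highest cKO value was under the lowest control value. The fitted log2 fold change was -0.39 (adjusted p = 0.00132, SE 0.06), leaving 76.1% of the control level, and the difference was -0.34 among Rps3a3-low and -0.46 among Rps3a3-high libraries. Reads were counted over all exons and the labels do not name the floxed one, so transcripts that lack it would still be counted. Among the Rps3a3-low libraries alone the adjusted p was 0.0822.

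Its paralogs did not pass. Arid1b, the alternative BAF subunit, measured 58.3 ± 2.85 CPM (SD, n = 5) in control and 62.5 ± 3.34 CPM (n = 4) in cKO, a log2 fold change of 0.10 with a 95% interval of -0.04 to 0.24. Arid2, which occupies the corresponding position in PBAF, measured 79.4 ± 5.46 and 72.9 ± 4.95 CPM, a log2 fold change of -0.12 with an interval of -0.28 to 0.03. Divided by exon length, the 3 ARID genes together summed to 24.2 ± 1.25 CPM per kb in control and 21.0 ± 0.385 CPM per kb in cKO. Arid1a held 50.3% of this sum in control and 44.1% in cKO, while Arid1b went from 19.1% to 23.6% and Arid2 from 30.6% to 32.3%. The log2 ratio of Arid1b to Arid1a was -1.20, -1.12, -1.29, -1.35 and -1.31 in control and -0.84, -0.74, -0.73 and -0.75 in cKO libraries. All cKO ratios exceeded all control ratios, with a difference of 0.49 (two-sided exact permutation test over libraries, p = 0.00794, the smallest that 5 against 4 libraries allow, adjusted p = 0.0146 over 11 ratios). For Arid2 over Arid1a the difference was 0.27 (exact permutation p = 0.0159, adjusted p = 0.0249) with overlapping groups. This pass was lost when labels were permuted within library sets (exact permutation, adjusted p = 0.0611) and without control 1, 3, 4 or 5. Arid1a is the denominator of both ratios. Of the 11 ratios tested 8 passed at an adjusted p under 0.05, of which 7 contain a gene that passed by itself, so they do not count as separate results. Without control 4 or control 5, none of the 8 passed (lowest adjusted p = 0.0524, exact permutation test), with fewer libraries and a higher smallest p.

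The Smarcd genes encode the BAF60 subunits, which bridge the complex to transcription factors, and 1 paralog is used per complex. Smarcd3 (BAF60c, chromosome 5, 24590818 to 24624411, minus strand) measured 63.9, 66.4, 60.5, 58.7 and 58.7 CPM in control 1 to 5 and 91.3, 115.9, 93.3 and 103.4 CPM in cKO 1 to 4. Each cKO library was above each control library, with a wide gap between the groups. It was upregulated by a log2 fold change of 0.71 (adjusted p = 8.87e-05, SE 0.08), 1.64-fold, with differences of 0.62 among Rps3a3-low and 0.80 among Rps3a3-high libraries.

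Smarcd1 (BAF60a, chromosome 15, 99702129 to 99713991, plus strand), the more broadly used paralog, moved the other way. It measured 63.3, 58.4, 56.4, 61.8 and 56.2 CPM in control and 46.5, 51.7, 50.2 and 45.7 CPM in cKO libraries, again without overlap. It was downregulated with a log2 fold change of -0.29 (adjusted p = 0.0116, SE 0.07), with within-set differences of -0.30 and -0.35, and the Rps3a3-low libraries alone gave an adjusted p of 0.136. Smarcd2 (BAF60b), known from myeloid cells, measured 38.8 ± 2.79 CPM in control and 38.5 ± 2.77 CPM in cKO, with a log2 fold change of -0.01 and an interval of -0.18 to 0.15.

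Per kb of exon, Smarcd1 held the largest share of the family in control hearts (39.2%, against 32.1% for Smarcd3 and 28.8% for Smarcd2). Without division by length, Smarcd3 and Smarcd1 measured 61.6 ± 3.40 and 59.2 ± 3.19 CPM in control. That order therefore rested on exon length, and part of the Smarcd3 length overlaps another gene, as described below. Per kb in cKO hearts, Smarcd3 held 46.3%, Smarcd1 28.4% and Smarcd2 25.3%. The Smarcd3 share was 31.2% to 33.1% over control libraries and 44.1% to 48.9% over cKO libraries. The log2 ratio of Smarcd3 to Smarcd1 was 0.06 ± 0.10 in control and 1.05 ± 0.14 in cKO, a difference of 0.99 with no overlap (exact permutation p = 0.00794, adjusted p = 0.0146). The ratio to Smarcd2 differed by 0.72 with the same exact permutation p and adjusted p. The family sum was 37.6 ± 1.76 CPM per kb in control and 42.5 ± 3.03 in cKO, also without overlap. Among the 29 tested subunits Smarcd3 ranked 10th per kb in control and 3rd in cKO hearts.

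Smarcd3 is the 1 called subunit whose exons overlap another gene. Of its exon bases, 2466 or 48.2% overlap exons of Chpf2 on the opposite strand, and whether counting used strand is not given in the sources used here. Chpf2, a chondroitin-synthesis gene, measured 26.7, 25.4, 19.9, 19.4 and 21.8 CPM in control and 23.8, 36.1, 25.6 and 28.9 CPM in cKO libraries (log2 fold change 0.34, adjusted p = 0.11, SE 0.13). Reads of the 2 genes cannot be told apart in the shared stretch if strand was not used. Smarcd3 transcripts are also GC-rich (59.2%). Libraries differed in how counts ran with GC content, with a log2 difference between 60% and 40% GC of 0.60 in cKO 2, the library with the highest Smarcd3 level, and of -0.42 in control 4. With this trend removed, Smarcd3 was 0.59 higher on the log2 scale (adjusted p = 3.56e-05), just above the limit of 0.58 for a call.

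**Figure D2:**
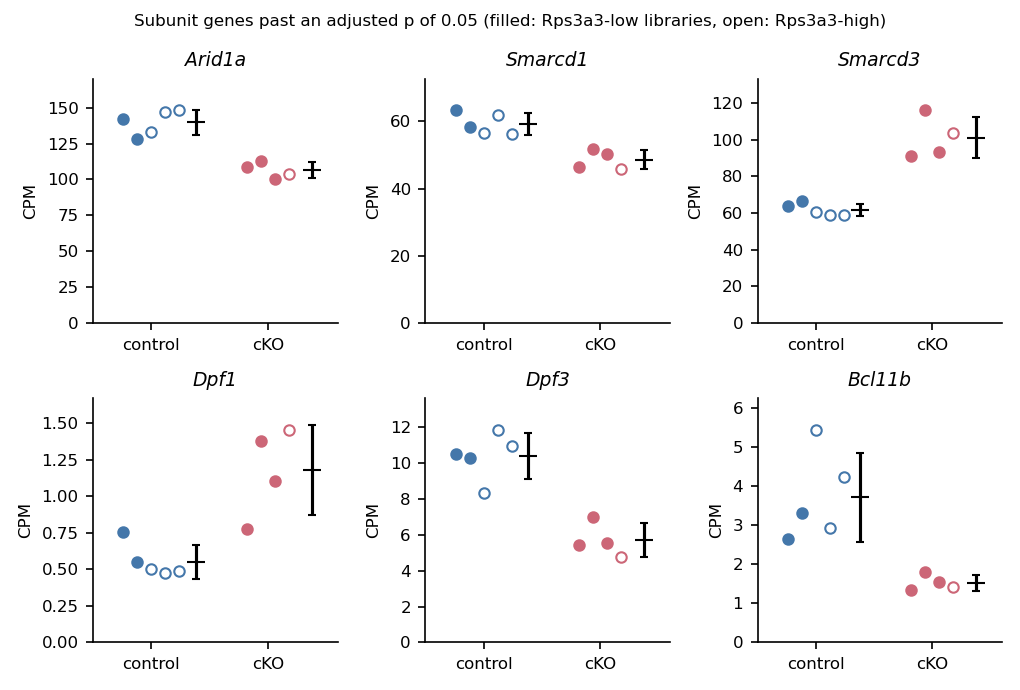
CPM (vertical axis) of the 6 subunit genes with an adjusted p under 0.05 in each control and cKO library. Filled points are Rps3a3-low and open points Rps3a3-high libraries, and bars show mean ± SD. No panel has a cKO library inside the control range, and for Dpf1 the lowest cKO value, 0.778 CPM, lies next to the highest control value, 0.752 CPM.

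The DPF proteins (BAF45 subunits) read acetylated and methylated histone tails through paired PHD fingers, and Dpf3 is the family member known for expression in heart and somites. Dpf3 (chromosome 12, 83213745 to 83487716, minus strand) measured 10.5, 10.3, 8.34, 11.9 and 11.0 CPM in control and 5.41, 7.03, 5.56 and 4.79 CPM in cKO libraries. The highest cKO library lay below the lowest control library. It was downregulated by a log2 fold change of -0.87 (adjusted p = 0.00127, SE 0.14), with -0.80 among Rps3a3-low and -1.12 among Rps3a3-high libraries. Dpf3 and Smarcd3 were the subunits that stayed called in all 20 alternative analyses, between -0.98 and -0.79 for Dpf3 and between 0.59 and 0.76 for Smarcd3.

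Dpf1, the paralog known from neurons, was near the limit of detection (chromosome 7, 29303951 to 29318243, plus strand). It measured 0.752, 0.550, 0.499, 0.472 and 0.485 CPM in control and 0.778, 1.38, 1.10 and 1.45 CPM in cKO libraries, from 15 to 60 counts per library. The groups did not overlap, but control 1 and cKO 1 both held 25 counts. The log2 fold change was 1.09 (adjusted p = 0.0125, SE 0.26). The within-set difference was 0.74 among Rps3a3-low and 1.58 among Rps3a3-high libraries, and the fit to the Rps3a3-low libraries alone gave an adjusted p of 0.353. Under the replicate block the call was also lost (1.03, adjusted p = 0.0832), and a filter at a mean of 1 CPM removed the gene. Markers of neurons and Schwann cells summed to 25.2 to 30.3 CPM in control and 24.4 to 32.6 CPM in cKO libraries. Of the 15 markers 9 were tested and 1 passed, Dbh, the noradrenaline-synthesizing enzyme (log2 fold change 0.61, adjusted p = 0.0258), while Chat was at 0 in every library. The neuronal genes Tubb3 (1.81-fold, adjusted p = 0.12) and Elavl3 (2.29-fold, adjusted p = 0.19) did not pass. The median log2 fold change of the 9 tested markers was -0.17. The part of nerve cells in the Dpf1 level was not tested.

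Dpf2, the ubiquitous paralog, carried most DPF transcript in both groups. It measured 79.4 ± 4.40 CPM in control and 76.6 ± 3.11 CPM in cKO (log2 fold change -0.05, interval -0.19 to 0.08). Its share of the 3 DPF genes per kb was 82.6% in control and 88.3% in cKO, that of Dpf3 went from 16.7% to 10.1%, and that of Dpf1 from 0.692% to 1.64%. The log2 ratio of Dpf3 to Dpf2 was lower by 0.77 in cKO (-2.88 ± 0.21 in control, -3.65 ± 0.17 in cKO), and that of Dpf1 to Dpf3 was higher by 1.48 (-3.37 ± 0.24, -1.89 ± 0.33). Neither ratio overlapped between the groups, and each had an exact permutation p of 0.00794 and an adjusted p of 0.0146. Dpf1 over Dpf2 differed by 0.71 with the same exact permutation values. Ratios with Dpf1 depended on the pseudocount of 0.5 CPM: with 0.1 and 2 CPM, Dpf1 over Dpf2 differed by 1.0 and 0.36 and Dpf1 over Dpf3 by 1.81 and 1.0. Phf10, the BAF45a subunit of PBAF, measured 81.4 ± 7.14 and 71.5 ± 8.13 CPM (log2 fold change -0.19, interval -0.38 to 0.01).

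**Figure D3:**
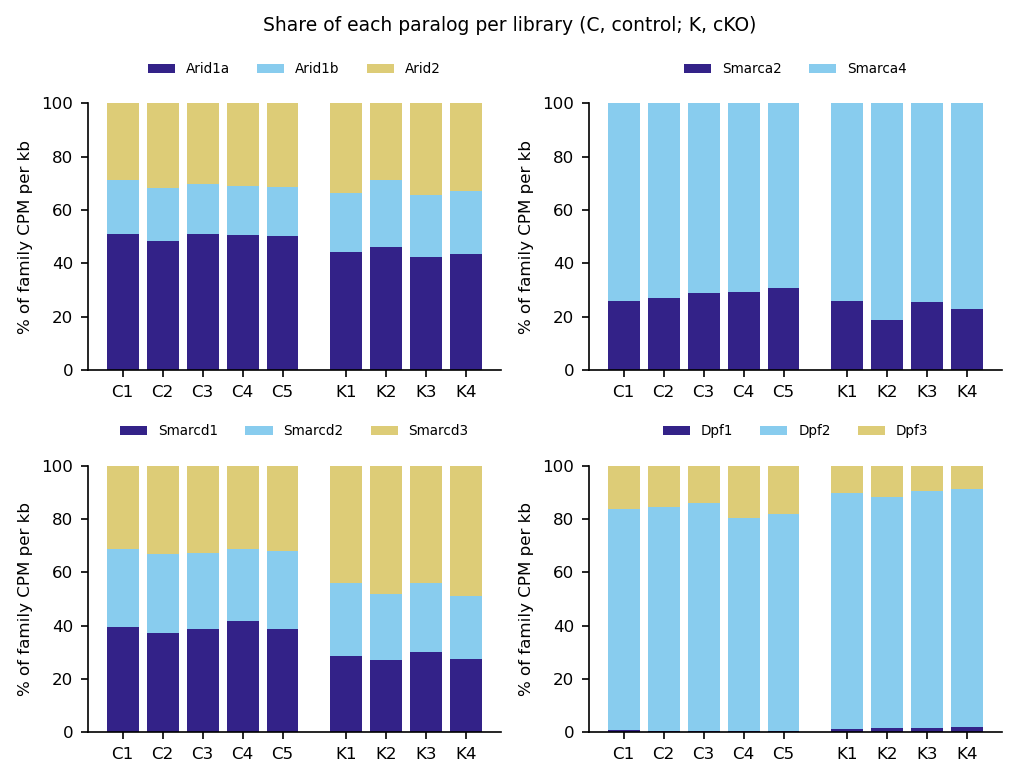
Share of each paralog in the summed CPM per kb of its family (vertical axis, percent) in control 1 to 5 (C1 to C5) and cKO 1 to 4 (K1 to K4). Smarcd3 takes 44.1% to 48.9% of the Smarcd family in cKO libraries against 31.2% to 33.1% in controls, and the Dpf3 share is smaller in each cKO library than in each control.

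Bcl11b, a zinc finger protein bound to BAF in T cells and neurons, was low throughout (chromosome 12, 107910403 to 108003602, minus strand). It measured 2.65, 3.30, 5.43, 2.93 and 4.24 CPM in control and 1.34, 1.80, 1.54 and 1.43 CPM in cKO libraries. All cKO libraries lay below all controls, and control 3 was the highest. The log2 fold change was -1.28 (adjusted p = 0.00259, SE 0.23), 0.412-fold. Control 3 was also the library with T lymphocyte transcripts. Its Cd8a level was 4.43 CPM against 0 to 0.301 CPM elsewhere, its Cd3d level 1.22 CPM against 0 to 0.239 CPM, and its Cd4 level 3.10 CPM against 0.661 to 1.27 CPM.

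Without control 3, Bcl11b was lower in cKO by a log2 fold change of -1.10 (adjusted p = 0.00535). The difference within the Rps3a3-low set, which does not contain control 3, was -0.93 and that among Rps3a3-high libraries -1.55. The fit to the Rps3a3-low libraries alone gave an adjusted p of 0.0795. The summed level of all 10 lymphocyte markers was 9.12 to 22.9 CPM in control and 9.78 to 16.4 CPM in cKO, and 0 of the 6 tested passed in edgeR. Bcl11a, its paralog, known from B cells and erythroid cells, measured 12.0 ± 1.27 CPM in control and 10.7 ± 0.997 CPM in cKO (log2 fold change -0.17, interval -0.40 to 0.06).

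**Figure D4:**
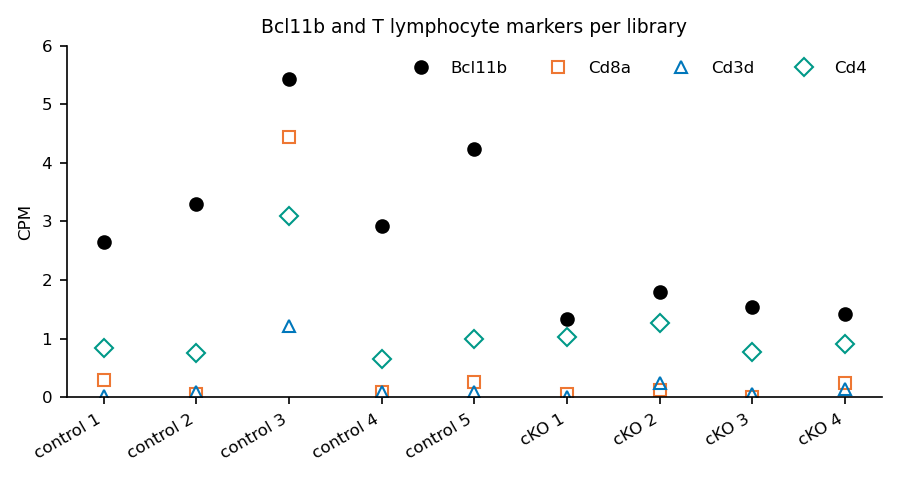
CPM (vertical axis) of Bcl11b and of the T lymphocyte markers Cd8a, Cd3d and Cd4 in the 9 libraries (horizontal axis). Control 3 is the highest library for all of them, at 5.43 CPM for Bcl11b and 4.43 CPM for Cd8a, while Bcl11b in the other controls also lies above its cKO values.

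The start regions of the 4 called subunits are shown because these genes moved in opposite directions. Each line gives 250 bases before and 50 bases after the RefSeq start on the sense strand (GRCm38.p6). Capitals mark the single match to GGAATG, the core letters bound by TEAD factors, found by searching both strands. The regions are chr5:24601953-24602252 (minus strand) for Smarcd3, chr7:29303755-29304054 (plus strand) for Dpf1, chr12:83487687-83487986 (minus strand) for Dpf3 and chr12:108003365-108003664 (minus strand) for Bcl11b.
Smarcd3: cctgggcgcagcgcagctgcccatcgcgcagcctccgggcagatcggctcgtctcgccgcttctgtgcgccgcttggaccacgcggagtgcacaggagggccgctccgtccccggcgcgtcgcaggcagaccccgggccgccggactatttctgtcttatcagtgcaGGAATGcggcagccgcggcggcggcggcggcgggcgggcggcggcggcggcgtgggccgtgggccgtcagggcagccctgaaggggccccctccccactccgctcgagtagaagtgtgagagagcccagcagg
Dpf1: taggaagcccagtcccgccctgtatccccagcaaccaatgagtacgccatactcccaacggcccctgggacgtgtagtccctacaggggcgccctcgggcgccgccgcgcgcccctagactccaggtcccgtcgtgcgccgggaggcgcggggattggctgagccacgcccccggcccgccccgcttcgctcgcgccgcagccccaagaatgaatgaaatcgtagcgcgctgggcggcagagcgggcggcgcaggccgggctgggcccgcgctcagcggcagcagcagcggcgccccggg
Dpf3: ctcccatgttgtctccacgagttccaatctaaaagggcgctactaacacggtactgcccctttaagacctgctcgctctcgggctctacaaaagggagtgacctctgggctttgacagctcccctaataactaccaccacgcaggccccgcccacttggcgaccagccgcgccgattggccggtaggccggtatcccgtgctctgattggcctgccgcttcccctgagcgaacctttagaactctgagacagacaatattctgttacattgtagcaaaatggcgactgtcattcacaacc
Bcl11b: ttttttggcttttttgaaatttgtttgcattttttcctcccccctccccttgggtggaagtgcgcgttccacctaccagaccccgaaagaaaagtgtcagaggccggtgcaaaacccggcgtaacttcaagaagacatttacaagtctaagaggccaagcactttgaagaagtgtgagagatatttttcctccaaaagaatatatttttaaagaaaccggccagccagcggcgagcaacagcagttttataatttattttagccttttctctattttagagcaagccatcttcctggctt

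GC content was 74.7% for Smarcd3, 74% for Dpf1, 55.3% for Dpf3 and 43% for Bcl11b, with 40, 39, 17 and 9 CpG dinucleotides. The downregulated Smarcd1 had 71.3% and 35 CpG, and the 2 start regions of Arid1a had 79.7% and 61.3%. Promoters were found for 24 of the 30 subunit genes, 26 in all, with a median GC of 68.8% and 33 CpG, against 60.3% and 19 for promoters of tested genes. The GGAATG match in Smarcd3 started 83 bases before the start (position -83). This motif was present in 4 of the 26 subunit promoters (15.4%), 12.5% of promoters of tested genes and 14.7% of all 32851 promoters. The 4 promoters belong to 3 genes, Smarcd3, Brd9 with 2 overlapping start regions, and Actl6b, which was not tested. AAGGTCA, bound by estrogen-related receptors, and CTA and TAG with any 4 bases between them, a loose pattern that takes in MEF2 sites and many others, were in 0 of the 26, against 4.72% and 3.69% of all promoters, searched on both strands. The RefSeq start of Smarcd3 lies inside the longer annotated gene.

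The ATPases Smarca4 (BRG1) and Smarca2 (BRM) are the motors of the complex, 1 per assembly, and neither passed in edgeR. Smarca4 measured 123.8, 116.7, 103.2, 109.9 and 107.6 CPM in control and 111.7, 155.9, 118.6 and 136.5 CPM in cKO libraries, with a log2 fold change of 0.22 (interval 0.01 to 0.43, adjusted p = 0.142). Smarca2 measured 92.0 to 106.1 CPM in control and 86.5, 79.6, 90.1 and 89.4 CPM in cKO, with a log2 fold change of -0.18 (interval -0.32 to -0.04, adjusted p = 0.0792). In DESeq2 Smarca2 passed (log2 fold change -0.18, adjusted p = 0.0432). Smarca2 libraries did not overlap between the groups, and Smarca4 libraries did. The log2 ratio of Smarca2 to Smarca4 was lower by 0.39 in cKO (-0.20 ± 0.14 in control, -0.58 ± 0.28 in cKO, exact permutation p = 0.0238, adjusted p = 0.0327), with overlapping groups. The difference was -0.24 among Rps3a3-low and -0.5 among Rps3a3-high libraries. Without cKO 2, whose ratio of -0.97 was the lowest, it was -0.26 (exact permutation, adjusted p = 0.0655). The pass was also lost when labels were permuted within library sets, and without any control except control 1. Smarca4 supplied 71.6% of ATPase CPM per kb in control and 76.7% in cKO hearts. This share depends on exon length, 6475 bases for Smarca4 and 14269 for Smarca2. Without division by length, Smarca4 and Smarca2 averaged 112.2 and 97.7 CPM in control and 130.7 and 86.4 CPM in cKO.

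**Figure D5:**
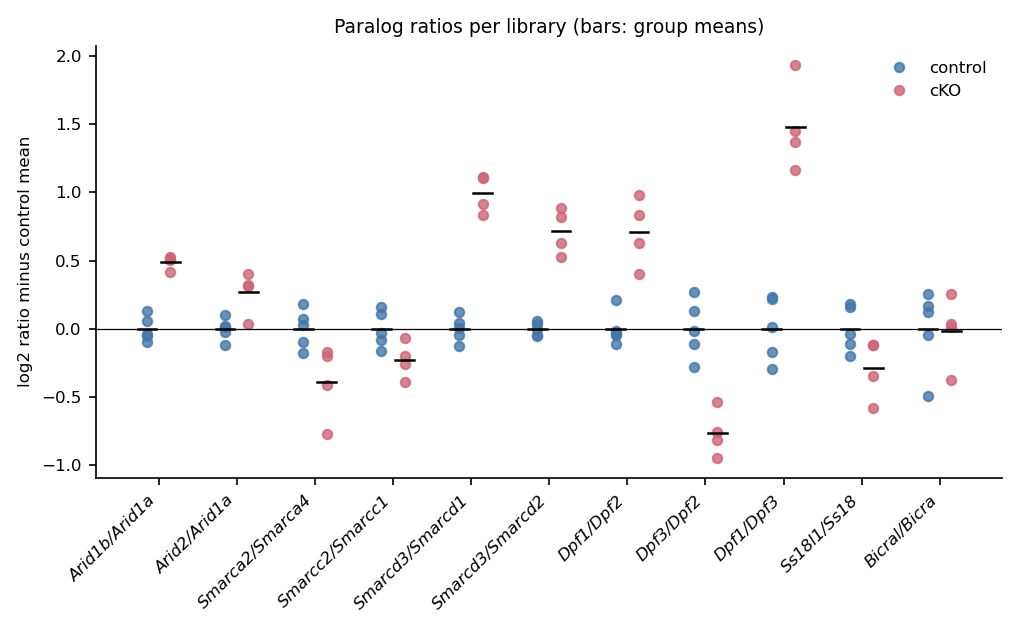
Log2 ratio of 2 paralogs minus the control mean of that ratio (vertical axis), for each control and cKO library, in the 11 ratios tested. Points are libraries and bars are group means. The cKO points stand clear of the controls for 6 ratios, with differences of 0.49, 0.99, 0.72, 0.71, -0.77 and 1.48 for Arid1b/Arid1a, Smarcd3/Smarcd1, Smarcd3/Smarcd2, Dpf1/Dpf2, Dpf3/Dpf2 and Dpf1/Dpf3.

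In edgeR 0 of the 5 core scaffold genes outside the Smarcd family passed, with 1 at an unadjusted p under 0.05, and in DESeq2 0 passed. Smarcc2 (BAF170), the most abundant subunit transcript per kb in both groups, measured 27.2 ± 1.21 CPM per kb in control and 25.6 ± 1.31 in cKO, with a log2 fold change of -0.09 (interval -0.21 to 0.03). Its partner Smarcc1 (BAF155) had a log2 fold change of 0.14 (interval -0.00 to 0.28, adjusted p = 0.177) and passed once the model held a term for the Rps3a3 sets (0.18, adjusted p = 0.0405). The ratio of Smarcc2 to Smarcc1 was lower by 0.23 (exact permutation p = 0.0476, adjusted p = 0.0582). Smarcb1, the tumor suppressor BAF47, measured 50.9 ± 1.64 and 50.8 ± 5.04 CPM (log2 fold change -0.00, interval -0.16 to 0.16). Smarce1 (BAF57), a high-mobility-group DNA-binding subunit, had a log2 fold change of -0.19 (interval -0.34 to -0.04, adjusted p = 0.0932), and the actin-like Actl6a had -0.03 (interval -0.18 to 0.12). With Actl6b at 0 counts, its ratio to Actl6a was not tested.

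The signature subunits of PBAF and ncBAF gave no call. Pbrm1, the polybromo subunit of PBAF, measured 123.6 ± 16.3 and 122.3 ± 11.9 CPM, and its log2 fold change of -0.01 (interval -0.23 to 0.20) changed sign between alternatives. Brd7, the bromodomain subunit of PBAF, had a log2 fold change of -0.13 (interval -0.27 to 0.01). In ncBAF, Brd9 had -0.16 (interval -0.31 to -0.02, adjusted p = 0.123), Bicra -0.06 (interval -0.45 to 0.33) and Bicral -0.08 (interval -0.23 to 0.07). The intervals of the 4 genes other than Bicra thus reached no further than 0.31 from 0, while that of Phf10 of PBAF, given above, reached -0.38. Bicra varied most of these among libraries, from 12.2 to 22.6 CPM.

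Of the remaining accessory subunits, Ss18l1 came nearest to the threshold. Ss18l1 (CREST), the neuronal paralog of Ss18, measured 11.1, 13.3, 11.2, 14.1 and 11.8 CPM in control and 10.4, 8.88, 10.8 and 8.21 CPM in cKO libraries, with the groups narrowly apart. Its log2 fold change was -0.36 (interval -0.62 to -0.11, adjusted p = 0.0525, SE 0.12), and 5 of 20 alternatives, DESeq2 and removal of the GC trend among them, moved it past the threshold. Ss18 had -0.06 (interval -0.19 to 0.07), and the ratio of the pair differed by -0.29 (exact permutation p = 0.0556, adjusted p = 0.0611). That ratio passed when labels were permuted within library sets, so its result depended on how labels were permuted. The BCL7 proteins, small subunits of the ATPase module, had log2 fold changes of 0.07 for Bcl7a (interval -0.08 to 0.21), 0.07 for Bcl7b (-0.14 to 0.29) and 0.05 for Bcl7c (-0.18 to 0.27). Over all 23 subunits that did not pass, 22 had a 95% interval inside ±0.58, the log2 of 1.5, and Ss18l1 was the exception.

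For comparison, 55 genes of other ATP-dependent remodelers (ISWI, CHD/NuRD, INO80 and their partners, with shared subunits such as Actb) were read from the same fit. In edgeR 0 were called, while 7 had an unadjusted p under 0.05. DESeq2 also called 0, with 8 at an unadjusted p under 0.05. In edgeR 4 passed, all lower, or 7.27%, against 16.3% of all tested genes in either direction and 8.03% lower: Chd7 (log2 fold change -0.30, adjusted p = 0.0157), mutated in CHARGE syndrome with heart defects, Cecr2 (-0.57, adjusted p = 0.0274), Chd6 (-0.21, adjusted p = 0.0254) and Chd4 (-0.16, adjusted p = 0.0498), the NuRD ATPase. Cecr2 measured 24.2 to 32.0 CPM in control and 12.9 to 23.2 CPM in cKO libraries. Among Rps3a3-low and Rps3a3-high libraries, differences were -0.30 and -0.24 for Chd7 and -0.42 and -0.81 for Cecr2. They were -0.2 and -0.27 for Chd6 and -0.12 and -0.18 for Chd4. These counts moved in alternative analyses: 0 passed in the Rps3a3-low libraries alone and 1 passed without cKO 4. Under the replicate block 1 passed and was called. The median log2 fold change of the 55 genes was -0.05.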

How the data were processed

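Ventricular RNA was prepared as stranded, poly(A)-selected libraries. The authors deposited raw read counts per gene as 1 table, with no normalization. The submitters' processing notes name STAR 2.4.2a, HTSeq 0.6.1 and mm10. The annotation behind the counts, and whether counting used strand, are not given in the sources used here, so overlapping opposite-strand genes are uncertain. All 9 libraries were assigned by their labels. The paper is not uniform on how many controls were sequenced, and every library labelled as control was used. No other sample columns were present (0).

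Symbols, exon lengths (the union of all annotated exons of a gene), GC content and coordinates came from GENCODE M21 on GRCm38. Promoter sequences came from RefSeq (GRCm38.p6). Genes were filtered with filterByExpr (minimum count 10), scaled by TMM and fitted on genotype alone in edgeR 4.0.16 (R 4.3.3, robust quasi-likelihood F test, two-sided, Benjamini-Hochberg over 15318 genes), which was tested on simulated data. CPM are counts per 1000000 of the TMM-scaled total, and totals were 31011055 to 40073801. Log2 paralog ratios used a pseudocount of 0.5 CPM and two-sided exact permutation tests over libraries, adjusted over 11 ratios. Promoter motifs were exact letter matches.

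The 30 subunit genes, the 55 other remodelers and the markers of cardiomyocytes, fibroblasts, endothelium, macrophages, smooth and skeletal muscle, neurons and Schwann cells and lymphocytes were listed with earlier results of these data known. All subunits were named. Of the remodelers, the 4 with the lowest adjusted p were named because under 4 were called. Dbh, Chat, Acta2, Cnn1, Kcnj8, the T lymphocyte markers and Chpf2 were named after their values were seen. Alternatives covered scaling, ratio pseudocounts of 0.1 and 2 CPM, DESeq2 1.42.0, filters, the replicate block, the library set, the Xist level and leaving out each library. Removal of a GC trend was added after the data were seen. Genes marking endothelium (1 higher and 1 lower of 8 passed) and skeletal muscle (1 higher of 2 tested) were read from the same fit.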

Additional observations from a re-analysis of the deposited data

Results flagged for a closer look

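Within groups, the gap of the highest or lowest library to its nearest neighbour exceeded Dixon's 95% critical value in 6 of the 82 sets of control or cKO values examined, where chance gives about 1 in 20 sets, or 4.1. Dpf1 in control 1 stood at 0.752 CPM, with the other controls at 0.472 to 0.550 CPM, and the log2 ratio of Dpf1 to Dpf2 in that library was -6.04 against -6.36 to -6.27 in the others. Library cKO 2, which had the steepest GC trend, was apart for Brd9 (51.1 CPM, with the others at 55.2 to 55.8) and for Bcl7b (31.6 CPM, with the others at 23.8 to 24.6). Bicral in control 5 was 29.1 CPM, with the others at 26.2 to 27.1. The log2 ratio of Arid1b to Arid1a in cKO 1 was -0.84, with the other cKO libraries at -0.75 to -0.73.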

How the results depend on the processing

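The count of called subunits stayed at 4 when any single library was left out (4 to 4), and that of subunits past the adjusted p at 6 to 8. Scaling changed neither count. Among the 5 Rps3a3-low libraries alone, which leave 2 controls and 3 cKO, 2 subunits were called and the same number passed (Smarcd3 and Dpf3), while the whole table gave 620 called and 849 passed in place of 1030 and 2493, and 0 of the 55 other remodelers passed in edgeR. With the GC trend removed 10 subunits passed, 3 higher and 7 lower, adding Smarca2, Smarcc1, Smarcc2 and Ss18l1, while the share of all genes that passed went from 16.3% to 22.9%. With the library set as a term 8 subunits passed, adding Smarcc1 and Ss18l1, with 19.9% of all genes. In DESeq2 8 subunits passed, adding Smarca2 and Ss18l1, with 20.5% of all genes. Without control 1 Smarce1 (adjusted p = 0.0488) and Ss18l1 passed, and Ss18l1 also passed without cKO 3.

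In deviations from the group means, same-numbered libraries correlated at -0.05, 0.07, -0.01 and 0.30 for numbers 1 to 4. The highest correlation of each of these controls with another cKO library was 0.51, 0.48, 0.40 and 0.07. Same-numbered libraries were thus closest only for number 4, where both were Rps3a3-high. Under the replicate block 3 subunits were called and 5 passed, with 5.80% and 11.3% of all genes, and Dpf1 was lost (1.03, adjusted p = 0.0832). It also lost its call in the Rps3a3-low libraries (0.74), over a range of adjusted p from 0.00461 to 0.353, and a mean filter of 1 CPM removed it. The block left 1 other remodeler called and 1 passed, and the Xist covariate 1 called. Leaving out libraries gave 0 to 1 called and 1 to 5 passed for them, with 1 called without control 2, control 4, cKO 1 or cKO 3, 2 passed without control 2, 3, 4 or 5 or without cKO 2, and 1 passed without cKO 4.

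The sign-flip test of the 4 same-numbered pairs of the replicate block cannot go below 0.125, so no ratio could pass. Its differences were 0.48 (Arid1b/Arid1a), 0.28 (Arid2/Arid1a), -0.34 (Smarca2/Smarca4), 0.99 (Smarcd3/Smarcd1), 0.71 (Smarcd3/Smarcd2), 0.70 (Dpf1/Dpf2), -0.73 (Dpf3/Dpf2), 1.44 (Dpf1/Dpf3) and 0.02 (Bicral/Bicra, which changed sign). Permuting within library sets gave 0.27 for Arid2/Arid1a and -0.39 for Smarca2/Smarca4 (exact permutation, adjusted p = 0.0611 for both) and -0.29 for Ss18l1/Ss18 (exact permutation, adjusted p = 0.0393). With 1 library left out, differences ran from 0.47 to 0.53 for Arid1b/Arid1a, 0.22 to 0.35 for Arid2/Arid1a, -0.46 to -0.26 for Smarca2/Smarca4, -0.28 to -0.18 for Smarcc2/Smarcc1, 0.95 to 1.04 for Smarcd3/Smarcd1, 0.66 to 0.78 for Smarcd3/Smarcd2, 0.62 to 0.82 for Dpf1/Dpf2, -0.84 to -0.70 for Dpf3/Dpf2, 1.33 to 1.58 for Dpf1/Dpf3, -0.35 to -0.19 for Ss18l1/Ss18 and -0.14 to 0.10 for Bicral/Bicra. A pseudocount of 0.1 or 2 CPM moved Dpf1/Dpf2 to 1.0 or 0.36 and Dpf1/Dpf3 to 1.81 or 1.0 and no ratio across the threshold. With a library left out the exact permutation test allows no p below 0.0286 without a control. The 6 ratios without overlap had adjusted p = 0.0524 without control 4 or control 5 and passed without any other library. Arid2/Arid1a lost its pass without control 1, 3, 4 or 5 and Smarca2/Smarca4 without control 2, 3, 4 or 5 or cKO 2, while Smarcc2/Smarcc1 passed without cKO 2 and Ss18l1/Ss18 without control 3.

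Subunits near 0 changed sign without passing. Smarcb1 was 0.01 under upper-quartile scaling, the 1 CPM filter and GC removal and 0.00 with the set term, and ran from -0.05 to 0.06 with 1 library left out. Smarcd2 was 0.00 under upper-quartile scaling (-0.05 to 0.03). Actl6a was 0.02 with the set term and 0.00 in the Rps3a3-low libraries. Pbrm1 was 0.02 under the replicate block, 0.09 with the set term, 0.15 in the Rps3a3-low libraries and 0.06 after GC removal (-0.07 to 0.05). Bcl7b was -0.00 in the Rps3a3-low libraries and -0.01 after GC removal (-0.03 to 0.11). Bcl7c was -0.01 in the Rps3a3-low libraries (-0.01 to 0.10), and Bicra ran from -0.22 to 0.08. The causes were not tested. Depth limits Dpf1, with 15 counts in its lowest library, and Actl6b.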
